A study of Homo sapiens with 6 samples.

Results

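The messenger RNA of 33 interferon-stimulated genes was followed in SUM1315 cells, an established triple-negative breast cancer line, under low and ambient oxygen. The genes were listed as known interferon-induced genes, with no cutoff on the measured values. Earlier results of these data were known when the list was made. All transcripts of each gene were summed. Transcripts were matched for 31 of the 33 genes, among 26425 genes summed in all. MX2 and OAS1 were not matched and have no level here, and OAS1 enters only the promoter search. The list holds the ubiquitin-like modifier ISG15 and its protease USP18, 4 IFIT and 3 IFITM proteins, 5 small interferon-induced proteins, 2 MX GTPases, 4 OAS family proteins, 4 genes grouped as RNA sensors, 4 transcription factors, 3 restriction factors and 2 members of the ADP-ribosyltransferase family.

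Interferons are secreted proteins that cells release when they sense viral nucleic acid. Type I interferon binds the receptor IFNAR1/IFNAR2, the kinases JAK1 and TYK2 phosphorylate STAT proteins, among them STAT2, and these join IRF9 to form the complex ISGF3. ISGF3 binds the interferon-stimulated response element in promoters and switches on genes whose products detect, degrade or trap viral RNA and particles. Many of these genes are also transcribed at a low level without interferon, and tumour cells differ widely in that level.

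Wild-type SUM1315 cells, so labelled, were grown in medium with serum, insulin and EGF. Groups differed in oxygen: 3 libraries came from normoxia (21% oxygen) and 3 from hypoxia (1% oxygen), both labelled 24 h. The labels name no interferon, virus or other immune stimulus in either group. All libraries come from 1 cell line, and whether replicates are separate cultures is not stated in the labels. The p-values hence refer to the spread between libraries, in part or whole possibly technical.

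Depth was 50.4 to 50.9 M reads in normoxia and 44.0 to 50.6 M in hypoxia, as recovered from the smallest steps of the values. The hypoxia markers VEGFA, SLC2A1, DDIT4, ANKRD37 and BNIP3 were raised, 5 of 5 tested, where 12.4% of all tested genes were raised. EGLN3 and CA9 stayed under 1 RPKM (reads per unit of transcript length and of library depth) in every library. ANKRD37 passed the filter, above 1 RPKM in 3 or more libraries, only with its hypoxic libraries. Its normoxic values were 0.889, 1.27 and 0.918 RPKM. Of 10 breast epithelial markers, 9 were under 0.25 RPKM in every library and GATA3 lay at 3.21 to 5.08. The 7 mesenchymal markers differed widely in level. VIM lay at 4741 to 7439 RPKM and AXL at 149 to 187, and ZEB1 averaged 7.42 over the 6 libraries. FN1 lay at 1.19 to 1.77, CDH2 at 1.80 to 3.41 and SNAI2 at 1.61 to 3.29, and SPARC did not exceed 0.430. ESR1 did not exceed 0.209 RPKM and ERBB2 lay at 20.2 to 23.7. Of 10 immune markers, 4 were matched: the pan-leukocyte gene PTPRC did not exceed 0.00826 RPKM, CD14 and LYZ were under 0.25, and the lysosomal gene CD68 rose from 46.7 ± 1.39 to 77.2 ± 3.60. The summed level of the immune markers was 45.8 to 48.3 RPKM in normoxia and 73.6 to 80.8 in hypoxia, nearly all of it CD68.

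The promoters of the listed genes were searched for a short sequence. This was the core of the response element, GAAA followed after any 2 bases by another GAAA, on both strands from 250 bases before to 50 bases after each RefSeq transcription start (GRCh38.p14). It was present for 18 of 25 listed genes with a promoter window (72.0%), and for 1195 of 27305 genes of all kinds (4.38%), or 3.57% of all windows of that length. A match describes these letters and is no evidence of binding. Matches can overlap one another, as in ISG15 and BST2. The sequences below show the core in tested genes that did not pass, from the abundant ISG15 and IFI6 to the weakly expressed IFIT1, IFIT3 and OAS3, in genes that fell, in genes that stayed near the detection limit, and in ISG20, a gene outside the list that rose. Each is read 5′ to 3′ on the strand of the gene, with the core in capitals (GAAA, 2 bases, GAAA, or its reverse complement TTTC, 2 bases, TTTC).
ISG15, chr1:1013374-1013409, plus strand: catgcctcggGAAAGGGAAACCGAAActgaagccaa
IFI6, chr1:27672288-27672317, minus strand: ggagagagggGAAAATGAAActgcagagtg
IFIT1, chr10:89392497-89392526, plus strand: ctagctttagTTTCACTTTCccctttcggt
IFIT3, chr10:89327865-89327894, plus strand: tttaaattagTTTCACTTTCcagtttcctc
OAS3, chr12:112938321-112938350, plus strand: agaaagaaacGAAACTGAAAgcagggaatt
EIF2AK2, chr2:37156977-37156996, minus strand: agtccaagggGAAAACGAAA
IFIH1, chr2:162318686-162318715, minus strand: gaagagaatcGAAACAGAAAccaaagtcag
PARP9, chr3:122564322-122564351, minus strand: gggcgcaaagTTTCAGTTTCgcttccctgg
IFI44, chr1:78649761-78649788, plus strand: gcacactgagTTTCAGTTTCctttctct
DDX60, chr4:168318821-168318850, minus strand: gtgctgaaggGAAACTGAAAcctaagtgct
BST2, chr19:17405735-17405770, minus strand: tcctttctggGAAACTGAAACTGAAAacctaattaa
IFITM3, chr11:320876-320905, minus strand: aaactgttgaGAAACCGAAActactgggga
ISG20, chr15:88638937-88638966, plus strand: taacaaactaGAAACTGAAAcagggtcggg
The shown core began 113 bases before the start in ISG15, 115 in IFI6, 116 in IFIT1, 41 in PARP9, 21 in IFIH1 and 6 in EIF2AK2. No core was found in the windows of IRF9, IRF1, STAT2, IFI35, SAMHD1, DDX58 and OAS1.

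Most of the summed level of these genes came from few of them. The 31 matched genes summed to 172 to 199 RPKM per library, and ISG15, IFI35 and IFI6 made up 67.4% of the mean sum. Averaged over the 6 libraries, ISG15 stood at 68.6 RPKM, above 90.0% of all tested genes, IFI35 at 29.4 (above 76.2%) and IFI6 at 26.8 (above 74.0%). EIF2AK2 followed at 9.08, SAMHD1 at 7.17, IRF9 at 6.33 and IRF7 at 6.01, these 4 averages under the median tested gene at 10.3 RPKM. The order of these levels is a description and turned between the groups: in hypoxia IRF9 (8.05) and IRF7 (7.61) stood above EIF2AK2 (6.92) and SAMHD1 (5.75), and EIF2AK2 in normoxia, at 11.2, was above that median. The ranges over libraries of IFI35 and IFI6 overlapped, as did those of IRF9 and IRF7, whereas the lowest ISG15 value lay above the highest IFI35 value.

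**Figure D1:**
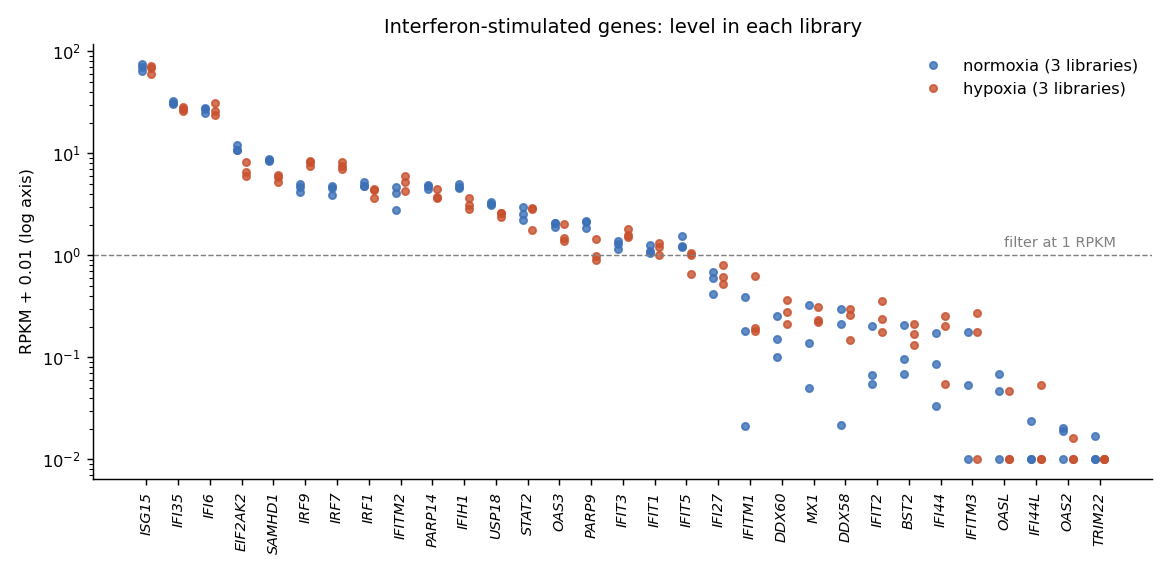
Level of each matched interferon-stimulated gene in every library, as RPKM + 0.01 on a log axis, ordered by mean over the 6 libraries. Blue points are the 3 normoxic and red points the 3 hypoxic libraries, and the dashed line marks the filter at 1 RPKM. ISG15, IFI35 and IFI6 lie at the top, and 13 genes stay below the line in every library.

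Of the matched genes, 13 stayed under 1 RPKM in all 6 libraries and were not tested, among them genes known for strong induction by interferon. The highest value among them was 0.797 RPKM, for IFI27, and 11 of the 13 were under 0.5 RPKM throughout. MX1, a GTPase that blocks viral nucleocapsids, lay at 0.0402 to 0.317 RPKM. IFI44L reached at most 0.0432, OAS2 0.0103 and OASL 0.0580. TRIM22 was listed at 0 in 5 of 6 libraries, with 0.00681 RPKM, about 1.03 reads, in the remaining one. None of the 13 had groups that did not overlap, and none exceeded 89.4 estimated reads in a library. Differences between the oxygen conditions were therefore measured with little precision here.

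Of the 18 tested genes, those above 1 RPKM in 3 or more libraries, IRF7 and IRF9 were raised in hypoxia, and EIF2AK2, IFIH1, SAMHD1, PARP9, USP18 and IFI35 were lowered. The other 10 did not pass an adjusted p of 0.05 (limma on log2(RPKM + 1), two-sided, Benjamini-Hochberg over 11889 tested genes). The 8 called genes are 44.4% of the 18, where 36.8% of all tested genes were called. Raised genes made up 11.1% of the 18 against 12.4% of all tested genes, and lowered genes 33.3% against 24.4%. The median log2 fold change was -0.20 for the 18 genes and -0.08 for all tested genes. At an unadjusted p under 0.05, 13 of the 18 passed, beside 48.5% of all tested genes.

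The hypoxic and normoxic libraries did not overlap for 11 of the 18 genes (61.1%), 3 higher and 8 lower in hypoxia, where 51.9% of all tested genes did not overlap, 16.4% higher and 35.5% lower. These were the 8 called genes with IFIT3 (higher), IFIT5 and IRF1 (lower). Among them, PARP9 and IFIT5 were tested through their normoxic level, with hypoxic values partly under the filter of 1 RPKM. Over all genes the split of calls moved with scaling: 12.4% raised and 24.4% lowered became 17.1% and 12.0% with median-of-ratios scaling, 15.3% and 14.0% with upper-quartile scaling and 9.88% and 35.5% with libraries rescaled to equal sums. Among the 18 genes 2 were raised under each of these scalings, and 4, 4 and 7 were lowered. Fold changes on the log2(RPKM + 1) scale understate the change of weakly expressed genes. In RNA from a whole culture, fewer cells of a kind and less RNA per cell cannot be told apart.

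**Figure D2:**
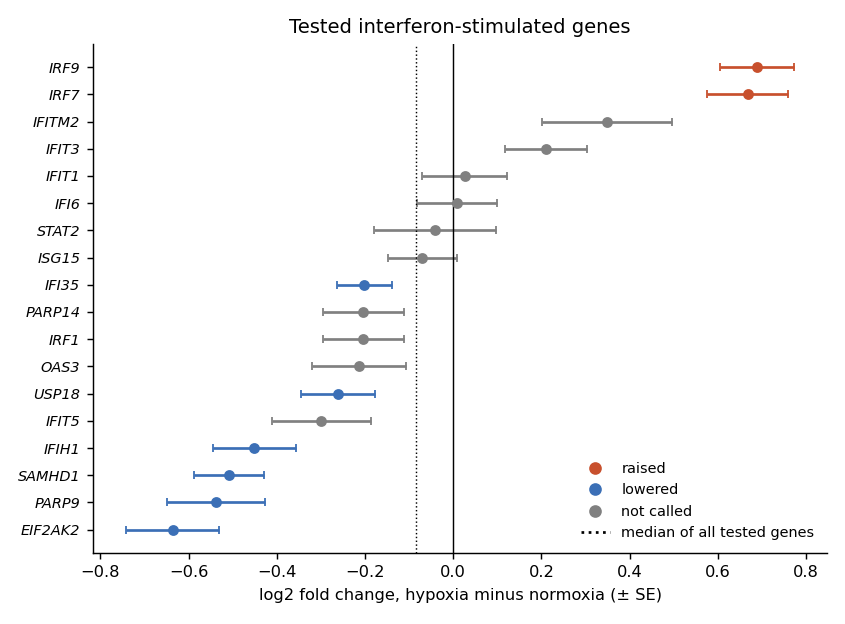
Log2 fold change (hypoxia minus normoxia, log2(RPKM + 1) scale, bars ± SE from limma) of the 18 tested interferon-stimulated genes, with raised genes in red, lowered genes in blue and genes that did not pass in grey. The dotted line is the median of all tested genes at -0.08. IRF9 and IRF7 stand at 0.69 and 0.67, and EIF2AK2 is lowest at -0.64.

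Among the 4 transcription factors, 2 rose and 0 fell, where 12.4% of all tested genes rose and 24.4% fell. IRF9 (ENSG00000213928, chromosome 14, 24161053 to 24166565, GRCh38), the DNA-binding part of ISGF3, measured 4.96, 4.67 and 4.21 RPKM in normoxia and 8.30, 7.49 and 8.35 in hypoxia. Every hypoxic library was above every normoxic one. The mean went from 4.62 ± 0.377 to 8.05 ± 0.482, a ratio of 1.74 and a log2 fold change of 0.69 (SE 0.08, limma adjusted p = 2.15e-04). The gene ENSG00000259529 overlaps IRF9 on the same strand, so reads can be shared between them.

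IRF7 (ENSG00000185507, chromosome 11, 612553 to 615999), the factor that drives interferon-alpha transcription after sensing, rose by nearly the same ratio. It measured 4.74, 4.61 and 3.91 RPKM in normoxia and 7.07, 7.45 and 8.30 in hypoxia, again without overlap. The mean went from 4.42 ± 0.447 to 7.61 ± 0.634, a ratio of 1.72 and a log2 fold change of 0.67 (SE 0.09, limma adjusted p = 4.50e-04). IRF9 and IRF7 kept their call and direction in all 16 alternative settings. In 1 of these, the filter at 5 RPKM, they were tested only through their hypoxic level, since every normoxic value was under 5.

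The other 2 transcription factors did not pass. STAT2, which gives ISGF3 its activation domain, measured 2.51, 3.0 and 2.21 RPKM in normoxia and 2.89, 1.76 and 2.86 in hypoxia, with overlapping groups (log2 fold change -0.04, limma adjusted p = 0.835). IRF1, a factor induced mainly by interferon-gamma, measured 5.26, 4.83 and 4.74 in normoxia and 4.38, 4.50 and 3.63 in hypoxia. All hypoxic IRF1 values lay below the normoxic ones, but the difference did not pass (log2 fold change -0.20, limma adjusted p = 0.101). IRF1-AS1 lies on the other strand of IRF1, and the libraries did not mark strand.

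The gene sums were also divided by annotated transcript type. For IRF9, transcripts annotated as protein coding went from 2.96 ± 0.214 to 5.72 ± 0.121 RPKM, 64.2% ± 4.30 and 71.4% ± 5.96 of the gene, and retained-intron transcripts from 1.48 ± 0.255 to 1.87 ± 0.408. The leading IRF9 transcript, a protein-coding one, held 59.1% of the gene in normoxia and 63.4% in hypoxia. For IRF7, protein-coding transcripts went from 2.39 ± 0.170 to 3.80 ± 0.602, and those annotated for nonsense-mediated decay from 1.48 ± 0.710 to 2.97 ± 0.229. Protein-coding transcripts held 54.8% ± 9.92 of IRF7 in normoxia and 49.8% ± 3.90 in hypoxia, a difference within that spread. Reads are split between transcripts by estimation, so these shares are less certain than the gene sums and were not tested.

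**Figure D3:**
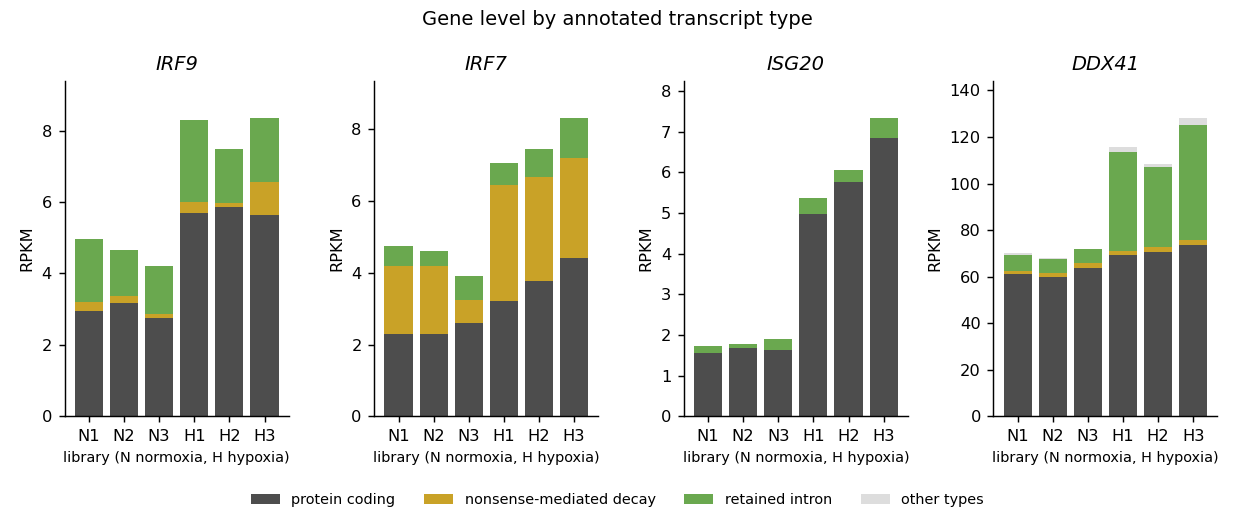
Level of IRF9, IRF7, ISG20 and DDX41 in each library in RPKM, stacked by annotated transcript type (N1 to N3 normoxia, H1 to H3 hypoxia). Protein-coding transcripts carry most of the IRF9 and ISG20 rise, IRF7 gains protein-coding and nonsense-mediated decay transcripts, and most of the DDX41 rise is in retained-intron transcripts.

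Of the 4 genes grouped as RNA sensors, 2 could be tested, and both were among the 24.4% of all tested genes that fell. EIF2AK2 (ENSG00000055332, chromosome 2, 37099210 to 37157065) encodes PKR, the kinase that stops translation when it binds double-stranded RNA. It measured 10.7, 12.2 and 10.9 RPKM in normoxia and 8.27, 6.51 and 5.98 in hypoxia, with no overlap. The mean fell from 11.2 ± 0.825 to 6.92 ± 1.20, a ratio of 0.616 and the lowest value of the 18 tested genes on the log2(RPKM + 1) scale (-0.64, SE 0.11, limma adjusted p = 0.00139). Behind these values stood 1161 to 3040 estimated reads per library. GPATCH11 overlaps EIF2AK2 on the other strand.

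IFIH1 (ENSG00000115267, chromosome 2, 162267079 to 162318703) encodes MDA5, the sensor of long double-stranded RNA. It measured 4.66, 4.53 and 5.03 RPKM in normoxia and 3.68, 3.11 and 2.85 in hypoxia. The groups were apart, and the mean fell from 4.74 ± 0.255 to 3.21 ± 0.422 (ratio 0.677, log2 fold change -0.45, SE 0.09, limma adjusted p = 0.00470). DDX58, now named RIGI, is the sensor of short RNA with a 5′ triphosphate, and lay at 0.0118 to 0.288 RPKM. The helicase DDX60 lay at 0.0905 to 0.354. MDA5 messenger RNA was therefore above that of RIG-I in every library, on this length-scaled unit.

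Among the restriction factors SAMHD1 (ENSG00000101347, chromosome 20, 36889773 to 36951901), a hydrolase that lowers the pool of deoxynucleotides, was lowered. It measured 8.61, 8.72 and 8.43 RPKM in normoxia and 6.14, 5.90 and 5.21 in hypoxia. Its normoxic values were tightly grouped and far above the hypoxic ones: the mean fell from 8.59 ± 0.144 to 5.75 ± 0.481 (ratio 0.669, log2 fold change -0.51, SE 0.08, limma adjusted p = 0.00102). BST2, or tetherin, which holds budding virions on the cell surface, lay at 0.0594 to 0.204 RPKM and was not tested. EIF2AK2, SAMHD1 and IFIH1 kept their call and direction in every alternative that tested them.

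Among the OAS proteins, which with the exception of OASL make the 2-5A messenger that activates RNase L, OAS3 was tested. It measured 1.91, 2.07 and 2.05 RPKM in normoxia and 2.00, 1.45 and 1.37 in hypoxia. Hypoxia replicate 1 lay within the normoxic range, and the difference did not pass (log2 fold change -0.21, limma adjusted p = 0.130). Without that library OAS3 passed (adjusted p = 0.0260, log2 fold change -0.32).

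PARP9 and PARP14 are neighbours on chromosome 3 and members of 1 enzyme family linked to interferon signalling. PARP9 (ENSG00000138496, 122527924 to 122564577) measured 2.18, 1.83 and 2.10 RPKM in normoxia and 1.43, 0.979 and 0.899 in hypoxia. Its mean fell from 2.04 ± 0.181 to 1.10 ± 0.284 with no overlap, the smallest ratio of the 18 genes at 0.540 (log2 fold change -0.54, SE 0.11, limma adjusted p = 0.00438). In hypoxia 2 of the 3 PARP9 values lay under the filter of 1 RPKM, so the gene was tested through its normoxic level, and with no filter the call was lost (adjusted p = 0.0539). PARP9 overlaps its partner gene DTX3L on the other strand, which went from 4.85 ± 0.196 to 4.03 ± 0.633 (log2 fold change -0.23, limma adjusted p = 0.0991), so reads can be shared. PARP14 measured 4.78, 4.91 and 4.42 in normoxia and 4.51, 3.71 and 3.67 in hypoxia. Hypoxia replicate 1 again fell within the normoxic range (log2 fold change -0.20, limma adjusted p = 0.102), and without it PARP14 passed, with a log2 fold change of -0.28.

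ISG15, the most abundant of the genes, is a ubiquitin-like protein attached to newly made proteins, and USP18 removes it and also blocks IFNAR2 signalling. ISG15 (ENSG00000187608, chromosome 1, 1001138 to 1014540) measured 65.0, 75.7 and 70.2 RPKM in normoxia and 60.3, 68.4 and 72.3 in hypoxia. The groups overlapped widely around means of 70.3 ± 5.35 and 67.0 ± 6.13 (log2 fold change -0.07, SE 0.08, limma adjusted p = 0.504). With 1945 to 2448 estimated reads per library, counting error was small beside the spread between replicates. With trends on GC content and length removed, ISG15 was lowered, at -0.30 on the log2 scale (adjusted p = 0.00180).

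USP18 (ENSG00000184979, chromosome 22, 18149899 to 18177397) measured 3.19, 3.34 and 3.08 RPKM in normoxia and 2.59, 2.58 and 2.35 in hypoxia. Though the groups did not overlap, the fall was small: 3.21 ± 0.132 to 2.51 ± 0.138, a ratio of 0.782 (log2 fold change -0.26, SE 0.08, limma adjusted p = 0.0316). The call was lost without hypoxia replicate 3 or any 1 normoxic library (adjusted p 0.0652 to 0.118) and with median-of-ratios (0.0960) or upper-quartile scaling (0.0737). USP18 has a near-identical copy, USP41, with which reads can be shared.

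Of the small interferon-induced proteins, IFI35 fell and IFI6 did not pass. IFI35 (ENSG00000068079, chromosome 17, 43006725 to 43014456), a partner of the signalling protein NMI, measured 32.5, 30.8 and 31.1 RPKM in normoxia and 26.0, 28.8 and 27.0 in hypoxia. It had the smallest change of the called genes: 31.5 ± 0.888 to 27.3 ± 1.42, a ratio of 0.866 (log2 fold change -0.20, SE 0.06, limma adjusted p = 0.0278). The IFI35 call ended under median-of-ratios (adjusted p = 0.177) or upper-quartile scaling (0.149), and without hypoxia replicate 1 or any 1 normoxic library (0.0545 to 0.122). IFI6, a mitochondrial and endoplasmic reticulum protein that restrains cell death, measured 27.2, 27.8 and 25.0 in normoxia and 23.8, 31.2 and 26.0 in hypoxia. The hypoxic IFI6 values spread on both sides of the normoxic ones (log2 fold change 0.01, limma adjusted p = 0.944).

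The IFIT proteins bind viral RNA with foreign 5′ ends, and none of the 3 tested genes passed in the main comparison. IFIT1 measured 1.04, 1.25 and 1.10 RPKM in normoxia and 1.20, 1.30 and 1.00 in hypoxia (log2 fold change 0.03, limma adjusted p = 0.850). IFIT3, which stabilises IFIT1, measured 1.27, 1.15 and 1.36 in normoxia and 1.79, 1.50 and 1.56 in hypoxia. IFIT5 measured 1.23, 1.21 and 1.55 in normoxia and 1.05, 0.996 and 0.648 in hypoxia. The hypoxic libraries were thus all higher for IFIT3 (log2 fold change 0.21, limma adjusted p = 0.0942) and all lower for IFIT5 (-0.30, adjusted p = 0.0562). The hypoxic IFIT5 values 0.996 and 0.648 lay under the filter of 1 RPKM, so that gene was tested through its normoxic level. IFIT5 passed without hypoxia replicate 1 (adjusted p = 0.0498), with equal sums (0.0346), on protein-coding transcripts (0.0462) and with limma-voom (0.0261), and its log2 fold change ranged from -0.58 to -0.029 over all alternatives. IFIT3 passed with GC and length trends removed (adjusted p = 0.00869). LIPA overlaps IFIT1, IFIT2 and IFIT3 on the other strand, and IFIT2 itself lay at 0.0446 to 0.350 RPKM.

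The IFITM proteins keep viral envelopes from fusing in endosomes, and only IFITM2 was high enough to test. It measured 2.79, 4.65 and 4.12 RPKM in normoxia and 4.24, 5.99 and 5.19 in hypoxia. Both groups varied widely and overlapped (log2 fold change 0.35, limma adjusted p = 0.0829), and without normoxia replicate 2 the gene passed (adjusted p = 0.0455, log2 fold change 0.47). IFITM1 lay at 0.0113 to 0.621 RPKM and IFITM3 at 0 to 0.260. The 3 genes resemble each other closely and IFITM1 overlaps IFITM2, so how reads were split among them is uncertain.

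**Figure D4:**
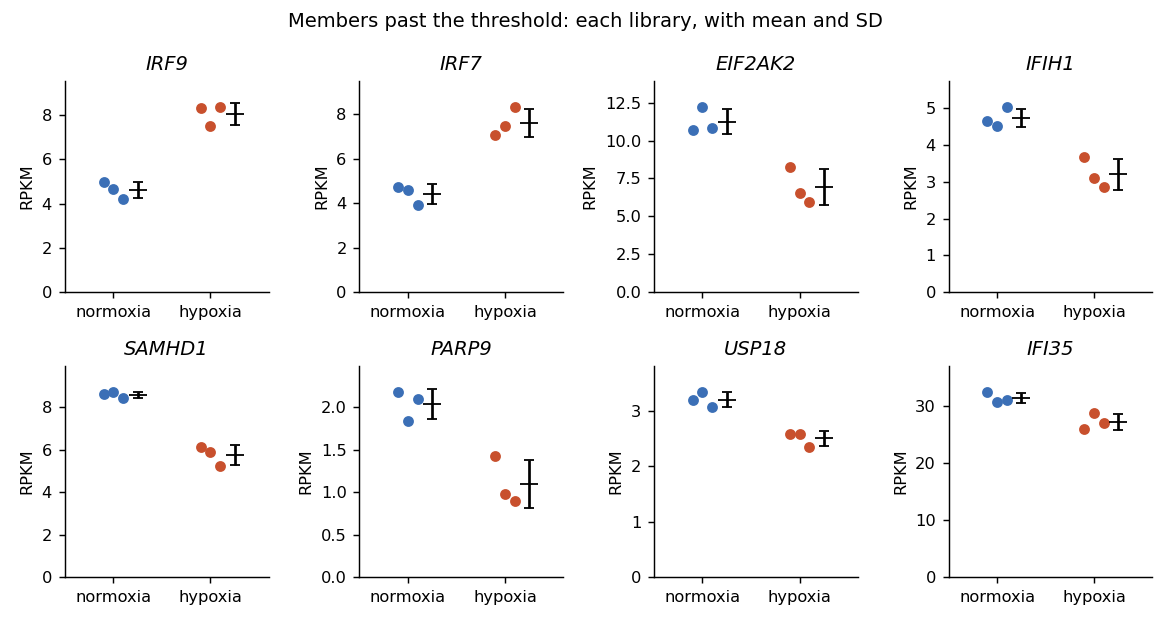
RPKM of the 8 interferon-stimulated genes that passed the threshold, with 1 point per library (blue normoxia, red hypoxia) and the mean ± SD of 3 libraries beside them, on axes that start at 0. In each panel the hypoxic points lie wholly above (IRF9, IRF7) or wholly below the normoxic points, with the widest relative gap for PARP9 (ratio 0.540) and the narrowest for IFI35 (0.866).

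Upstream of these genes, 50 pathway genes were listed, 41 matched and 32 tested. Of the 32, 4 were raised and 10 lowered (43.8% called, beside 36.8% of all tested genes), with a median log2 fold change of -0.11. With median-of-ratios scaling 6 were raised and 3 lowered, with upper-quartile scaling 6 and 4, and with equal sums 4 and 11. Of 7 interferon genes, IFNE alone was matched, at 0.192 to 0.479 RPKM. None of the 5 tested receptor chains passed: IFNAR1 had a log2 fold change of -0.10 (limma adjusted p = 0.366) and IFNAR2 of -0.13 (0.428).

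Of the kinases bound to the type I receptor, JAK1 was lowered. JAK1 fell from 105 ± 2.53 to 84.8 ± 9.27 (log2 fold change -0.31, limma adjusted p = 0.00901), while TYK2 had a log2 fold change of -0.04 (0.754). The difference between the changes of JAK1 and TYK2 was not tested.

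Negative regulators went both ways, with 2 of 8 tested raised and 4 lowered, beside 12.4% and 24.4% of all tested genes. SOCS1, an inhibitor of JAK kinases, rose from 3.17 ± 0.219 to 4.34 ± 0.474 (log2 fold change 0.35, limma adjusted p = 0.0142), a call lost without normoxia replicate 2 and with GC and length trends removed. IRF2BP2, a corepressor that binds IRF2, rose from 32.5 ± 2.15 to 46.7 ± 5.08 (log2 fold change 0.51). Most of the IRF2BP2 rise was in 1 transcript annotated as a processed transcript, which went from a mean of 17.4 to 28.2 RPKM. Protein-coding IRF2BP2 transcripts went from a mean of 15.1 to 18.5 RPKM, 46.6% and 39.9% of the gene. The phosphatase PTPN11 was lowered, with a log2 fold change of -0.35. RPL6 overlaps PTPN11 on the other strand, and the libraries did not mark strand.

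Of 12 tested nucleic acid sensing genes, 2 were raised and 4 lowered, on the same background. TBK1, the kinase that activates IRF3 and IRF7, fell from 5.93 ± 0.601 to 4.18 ± 1.12 (log2 fold change -0.44, limma adjusted p = 0.0301). Its groups overlapped, and the call was lost without normoxia replicate 2, normoxia replicate 3 or hypoxia replicate 3. Each of median-of-ratios scaling, upper-quartile scaling and the removal of GC and length trends also ended it. MAVS, the mitochondrial adaptor of RIG-I and MDA5, fell from 8.65 ± 0.348 to 7.32 ± 0.338 (log2 fold change -0.22, limma adjusted p = 0.0426). The MAVS call ended when any 1 normoxic library or hypoxia replicate 2 was left out, and likewise under median-of-ratios or upper-quartile scaling or with GC and length trends removed. STING1, the adaptor of DNA sensing, lay at 0.0225 to 0.189 RPKM. The exonuclease TREX1 rose by 0.50 on the log2 scale (limma adjusted p = 0.0280), with overlapping groups. The TREX1 call was lost when normoxia replicate 2 or 3 or hypoxia replicate 1 or 2 was left out. Limma-voom and the removal of GC and length trends also ended it. ATRIP overlaps TREX1 on the same strand, so reads can be shared between them.

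DDX41, a helicase of splicing and DNA sensing, showed the highest fold change of the pathway list. It measured 70.0, 68.0 and 71.7 RPKM in normoxia and 115, 108 and 128 in hypoxia (log2 fold change 0.74, limma adjusted p = 2.29e-05). Most of the rise was in transcripts annotated with a retained intron, which went from 6.11 ± 0.551 to 42.1 ± 7.34 RPKM. Protein-coding DDX41 transcripts went from 61.5 ± 1.97 to 71.2 ± 2.37, and on these alone the log2 fold change was 0.21, still past the threshold.

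A further 61 interferon-stimulated genes outside the list were set beside it. Of 55 matched and 34 tested, 2 were raised and 6 lowered (23.5% called, beside 36.8% of all tested genes), with a median log2 fold change of -0.01 beside -0.08. With median-of-ratios scaling 5 were raised and 1 lowered, with upper-quartile scaling 5 and 2, and with equal sums 2 were raised and 10 lowered. The 21 untested genes stayed under 1 RPKM in every library. Levels ranged widely: the chemokine gene CXCL10 did not exceed 0.0345 RPKM, while LY6E lay at 30.4 to 36.7. Both were chosen as examples after their values were seen.

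ISG20, an exonuclease that degrades viral RNA, showed the highest fold change of all these genes. It measured 1.72, 1.77 and 1.89 RPKM in normoxia and 5.36, 6.04 and 7.33 in hypoxia. The means of 1.80 ± 0.0902 and 6.24 ± 0.997 lie 3.48-fold apart (log2 fold change 1.36, SE 0.10, limma adjusted p = 5.87e-06), and the call held in all 16 alternatives. With the filter at 5 RPKM, ISG20 was tested only through its hypoxic level, since every normoxic value was under 5. PNPT1, a mitochondrial RNA exonuclease, fell from 14.3 ± 0.625 to 8.85 ± 1.08 (log2 fold change -0.64, limma adjusted p = 4.94e-04). Most of that sum was in transcripts annotated for nonsense-mediated decay, which went from 11.9 ± 0.929 to 7.08 ± 0.960 RPKM. Protein-coding PNPT1 transcripts went from 2.30 ± 0.329 to 1.68 ± 0.182. The PNPT1 call held in all 16 alternatives, with log2 fold changes from -0.70 to -0.30. The other raised gene, PARP10, had a log2 fold change of 0.46 (limma adjusted p = 0.0228), a call that leaving out normoxia replicate 2 or 3 or hypoxia replicate 3, or removing GC and length trends, ended, and it overlaps GRINA on the other strand. ZC3HAV1 and TRIM14 fell by 0.30 and 0.27 on the log2 scale, and each lost its call without normoxia replicate 2 and with median-of-ratios scaling. For ZC3HAV1 this also held for normoxia replicates 1 and 3 and hypoxia replicates 2 and 3, for upper-quartile scaling and for GC and length trends removed.

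**Figure D5:**
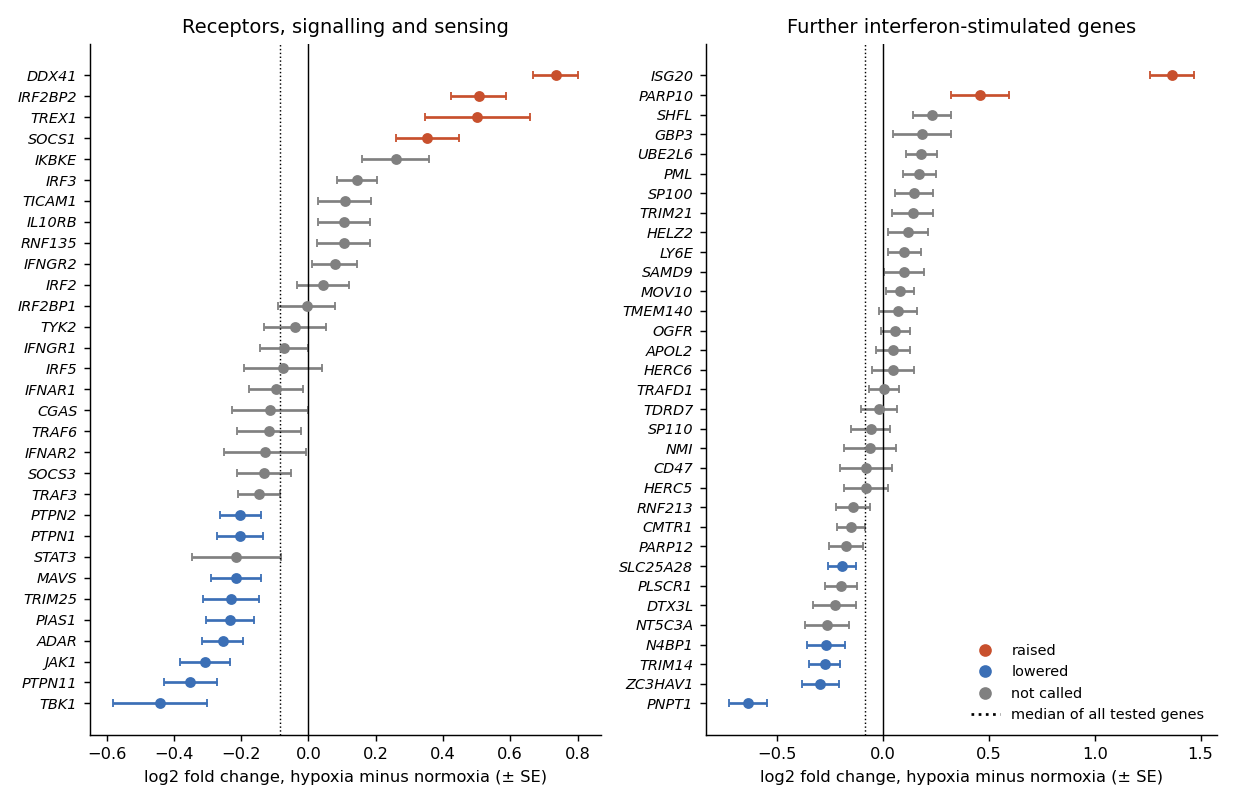
Log2 fold change (hypoxia minus normoxia, log2(RPKM + 1) scale, bars ± SE from limma) of 31 of the 32 tested pathway genes (left) and 33 of the 34 further interferon-stimulated genes (right), with raised genes in red, lowered genes in blue and genes that did not pass in grey. The dotted line is the median of all tested genes. DDX41 (0.74) and ISG20 (1.36) stand at the top, and TBK1 (-0.44) and PNPT1 (-0.64) at the bottom.

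The changes were also counted by whether the promoter window held the core. Of 10 tested list genes with a core in the window, 0 were raised and 3 lowered (EIF2AK2, IFIH1, PARP9), with a median log2 fold change of -0.21. Of 5 without it, 1 was raised (IRF9) and 2 lowered (SAMHD1, IFI35), with a median of -0.20. Over all tested genes 12.4% were raised and 24.4% lowered, and 3 of 10 lowered is near that share. ISG15, with overlapping cores at 113 bases before its start, and IFI44, with a core at 18 bases, differed in mean level from 68.6 to 0.125 RPKM. The core was present for 8 of 10 untested list genes with a window (80.0%) and for 10 of 15 tested ones (66.7%). The untested genes counted here include OAS1, which had no matched transcript. For IRF7 and USP18 no promoter window was used here.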

How the data were processed

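RNA from 6 libraries of SUM1315 cells was sequenced after column isolation, with a library kit without strand marking, per the labels' protocols. The submitters' processing notes name HISAT2, SAMtools, Trimmomatic and Partek, and GRCh38 and hg38 as builds. The annotation release and tool versions were not given in the sources used here. RPKM values were deposited by the authors for 165956 Ensembl transcripts. The unit was inferred from the values, whose low steps gave the depth (79.1% to 80.2% within 0.1 of a whole read). One read in a transcript of 2 kb was worth 0.00982 to 0.0114 RPKM, which limits only weakly expressed genes, and this covers counting error only. Estimated splits of reads between transcripts are not whole reads.

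Transcripts were joined to GENCODE 29 (140023 matched, 84.4%, leaving out 3.43% to 3.67% of the RPKM) and summed per gene, which weights short transcripts more than read counts would. Gene coordinates are GENCODE's on GRCh38, and promoter sequences are RefSeq's. Genes above 1 RPKM in 3 or more libraries were compared, hypoxia against normoxia without a block, on log2(RPKM + 1) by limma's moderated test with a mean-variance trend. The script was tested on simulated data. Replicates differed by more than counting noise (mean chi-square per gene at least 6.69).

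The members and the lists of pathway genes, further interferon-stimulated genes and markers were chosen with earlier results of these data known. All members are named. From each further list up to 4 raised and 4 lowered genes with the largest changes are named, except 2 genes that are not reported here, and others are examples chosen for their role. Alternatives were scaling by median-of-ratios, upper quartile or equal sums, no filter or 5 RPKM, the replicate number as a block, 0.1 as pseudocount, protein-coding transcripts only, GC and length trends removed (loess, span 0.5), limma-voom on estimated reads, and each library left out. Software was Python 3.11.15 with pandas 2.3.3, numpy 2.4.6 and matplotlib 3.10.9, and limma 3.58.1 in R 4.3.3.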

Additional observations from a re-analysis of the deposited data

How the results depend on the processing

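IRF7, IRF9, EIF2AK2, SAMHD1 and IFIH1 kept direction and call in every alternative that tested them, and PARP9 in all but the fit with no filter (adjusted p = 0.0539). The number of lowered interferon-stimulated genes, 6, became 3 with no filter and 3 with the filter at 5 RPKM, where 7 genes were tested, 4 with median-of-ratios or upper-quartile scaling, 7 with equal sums, protein-coding transcripts or GC and length trends removed, 9 with limma-voom, and 4 to 8 with 1 library left out. In all of these 2 or 3 were raised. With no filter the calls of USP18, IFI35, SOCS1, TREX1, TBK1, PTPN11, JAK1, MAVS, PARP10, ZC3HAV1 and TRIM14 were also lost. The median of the tested interferon-stimulated genes, -0.20 in the main fit, was taken over the genes that each setting tested. It became -0.13 with median-of-ratios scaling, -0.14 with upper-quartile scaling and -0.26 with equal sums. With no filter, where the 13 matched genes under 1 RPKM also entered, it was 0.0091. Over the 7 genes tested with the filter at 5 RPKM it was -0.070. It was -0.15 with GC and length trends removed, -0.25 with limma-voom, and -0.21 to -0.14 with 1 library left out. Of the single values of the 18 genes over all alternatives, 232 kept direction and side of the threshold, 17 lost and 12 gained a call, and 16 changed sign.

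Among pathway genes, 4 raised became 2 with no filter, the filter at 5 RPKM, and GC and length trends removed, and 2 to 4 with 1 library left out; 10 lowered became 3 under median-of-ratios scaling, 4 under upper-quartile scaling, 4 without a filter, and 4 to 9 with 1 library left out (leaving out normoxia replicate 1, 2 or 3 gave 5, 4 and 5, and hypoxia replicate 2 gave 6). Pathway genes raised numbered 2 without normoxia replicate 2. Among the further genes, 2 raised became 5 with median-of-ratios, 5 with upper-quartile scaling, 1 without a filter, and 1 to 4 with 1 library left out (1 without either normoxia replicate 2 or 3, 4 without hypoxia replicate 1); 6 lowered became 1, 2 and 10 with median-of-ratios, upper-quartile and equal-sum scaling, 2 with no filter, 3 with GC and length trends removed, and 1 to 7 with 1 library left out (leaving out normoxia replicate 1, 2 or 3 gave 2, 1 and 3, and hypoxia replicate 1 gave 3). The cause was not tested.

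Signs reversed for 5 genes that did not pass. ISG15 was at 0.014 with median-of-ratios scaling and -0.13 to 0.0029 with 1 library left out. IFIT1 was at -0.011 with equal sums and -0.018 to 0.081 with 1 library left out. IFI6 was at -0.057 with equal sums, -0.093 with GC and length trends removed, -0.00018 with limma-voom and -0.095 to 0.092 with 1 library left out. STAT2 was at 0.020 with median-of-ratios scaling, 0.0066 with upper-quartile scaling, 0.013 on protein-coding transcripts and -0.13 to 0.12 with 1 library left out. PARP14 was at 0.013 with GC and length trends removed.

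The shared replicate numbers showed no visible pairing: deviations of same-numbered libraries from their group means correlated at 0.0894, 0.0299 and -0.227. The other pairs ranged from -0.251 to 0.204. With 3 libraries per group centred on their mean, such values cannot decide whether cultures were paired. With the replicate block 3 interferon-stimulated genes were raised, IFITM2 added, and 4 lowered, without USP18 and IFI35, and MAVS lost its call; the pathway list had 4 raised and 7 lowered, the further list 2 and 5, and the median stayed at -0.20. Depth limits mainly the 13 genes under 1 RPKM.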
